A study of Mus musculus with 6 samples.

Results

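The cathepsin family is described here in double-positive thymocytes of Sox13 transgenic mice and of wild-type littermates. The members are 8 genes, namely Ctsl, Ctss, Ctse, Ctsd, Ctsb, Ctsc, Ctsh and Ctsz, and every probe set that the platform annotation assigns to one of them. That gave 25 probe sets of the 25470 used, and 8 of the 8511 genes named on the arrays. The genes were chosen with their transgenic over wild-type log2 ratios already known, so those ratios are given as a description, without a test.

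Double-positive cells carry both CD4 and CD8, and they were sorted by these 2 surface proteins from pooled thymocytes of at least 2 mice per sort. The transgenic group was C57BL/6 mice with a Sox13 transgene, female and 6 weeks old, whose double-positive cells express the HMG-box transcription factor Sox13 ectopically. The wild-type group was C57BL/6 littermates of the same sex and age without the transgene. Neither the promoter nor the copy number of the transgene is given here. RNA of each genotype was hybridised in experiment 1 to the Affymetrix arrays Mu11K A and Mu11K B, which carry different probe sets, and in experiment 2 to the U74Av2 array. Each array type therefore holds 1 transgenic and 1 wild-type array, 6 arrays in all, and differences between genotypes on one array type have no replicate check. Nothing in the labels says whether the experiments used separate litters.

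Cathepsins are proteases of endosomes and lysosomes. They are made as inactive precursors, are sorted to acid compartments largely by mannose 6-phosphate receptors, and are held in check by cystatins. The family mixes cysteine proteases (Ctsl, Ctss, Ctsb, Ctsc, Ctsh and Ctsz) with aspartic proteases (Ctsd and Ctse). In the mouse thymus, cathepsin L of cortical epithelial cells and cathepsin S of bone marrow-derived antigen-presenting cells degrade the invariant chain that guards class II molecules, a step of antigen presentation to developing T cells.

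Every value below is an intensity scaled so that each array has a 2% trimmed mean of 500. Intensities below a floor of 100 are not well separated from background, were set to 100 before log2 was taken, and give folds that are bounds, written "at least". Of the 25 cathepsin probe sets, 21 lay above the floor in either genotype, 17 lay above it in both genotypes and 4 lay at the floor in both. Above the floor in either genotype were 3882 of all 6508 probe sets on Mu11K A and 3577 of 6540 on Mu11K B. On U74Av2 they were 7109 of 12422. On a single array, the share of all probe sets above the floor was 46.9% to 57.4%. Ratios spread more widely in experiment 1, where the SD of the log2 ratio over probe sets was 0.73 on Mu11K A and 0.83 on Mu11K B, than in experiment 2, where it was 0.35. The transgene itself gave 5951 in the transgenic sample and under the floor in the wild type on Mu11K A, and 3832 in the transgenic sample against 599.6 in the wild type on U74Av2. Cd8a and Cd4, which define the sorted cell, were high in both genotypes. Cd8a stood at 15638 in transgenic and 16859 in wild-type cells on Mu11K B and at 15638 and 17759 on U74Av2. Cd4 stood at 7854 in transgenic and 7876 in wild-type cells on Mu11K B and at 5040 and 6496 on U74Av2. Some other double-positive marker genes differed more. Of all double-positive marker genes measured, Cd4 and Cd8a included, 3 were higher and 7 lower in experiment 1, and 6 higher and 6 lower in experiment 2. Their median log2 ratios were -0.24 and 0.02, beside -0.07 and -0.03 over all genes. Rag2 read 459.8 in transgenic against 1871 in wild-type cells in experiment 1, and 2119 against 2008 in experiment 2. Ptcra had log2 ratios of 1.61 and 0.58.

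Promoter windows of Ctsl, Ctss and Ctsd are shown because 3 short motifs were searched in them. These were CACGTG, the core of the lysosomal gene motif bound by TFEB-type factors, and ACAAT and AACAAT, which resemble the sites of SOX proteins. No window existed for Ctse, the member with the widest gap between genotypes, or for Ctsb and Ctsh, so these were not searched. The windows come from RefSeq on build GRCm38.p6, run 5′ to 3′ from 250 bases before to 50 bases after the start site, and existed for 5 of the 8 genes (Ctsl, Ctss, Ctsd, Ctsc and Ctsz). Capitals mark CACGTG and ACAAT on either strand, the second also as its reverse complement ATTGT, and every AACAAT contains an ACAAT.
Ctsl, chr13:64370471-64370770, minus strand: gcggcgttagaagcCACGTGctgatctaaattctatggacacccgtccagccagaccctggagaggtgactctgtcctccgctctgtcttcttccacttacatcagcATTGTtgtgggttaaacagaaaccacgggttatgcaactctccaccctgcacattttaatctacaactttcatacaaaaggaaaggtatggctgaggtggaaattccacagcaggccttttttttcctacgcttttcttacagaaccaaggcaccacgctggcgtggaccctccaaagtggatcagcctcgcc
Ctss, chr3:95526536-95526835, plus strand: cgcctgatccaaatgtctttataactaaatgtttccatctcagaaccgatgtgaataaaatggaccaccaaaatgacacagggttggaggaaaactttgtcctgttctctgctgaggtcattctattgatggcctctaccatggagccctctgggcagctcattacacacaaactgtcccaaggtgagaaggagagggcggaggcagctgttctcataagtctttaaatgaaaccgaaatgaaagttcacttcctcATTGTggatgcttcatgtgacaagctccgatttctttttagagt
Ctsd, chr7:142387778-142388077, minus strand: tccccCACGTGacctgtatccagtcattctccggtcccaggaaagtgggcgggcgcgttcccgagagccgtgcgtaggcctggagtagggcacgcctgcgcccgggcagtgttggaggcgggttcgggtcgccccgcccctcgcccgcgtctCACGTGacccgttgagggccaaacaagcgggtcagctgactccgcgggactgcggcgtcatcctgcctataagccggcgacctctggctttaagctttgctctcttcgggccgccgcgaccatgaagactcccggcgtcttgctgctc

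The start site used for the Ctsl window lies 252 bases inside the annotated 5′ end of the gene, so that this window falls within the gene, and that of Ctsc lies 61 bases inside, while those of Ctss, Ctsd and Ctsz are the annotated ends. The Ctsl window held 1 CACGTG, 236 bases before the start site when positions are counted from 0 at that site (position -236), and 1 ACAAT at position -143 that is also an AACAAT. The Ctss window held no CACGTG and 1 ACAAT at position 6. The Ctsd window held 2 copies of CACGTG, at positions -245 and -98, and no ACAAT. The Ctsz window had 1 ACAAT and the Ctsc window none of the 3 motifs. Over all 32851 windows of this length, 7.15% held CACGTG, 31% held ACAAT and 10.7% held AACAAT. A match is a stretch of letters and says nothing about binding.

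Ctsl and Ctse showed the widest gaps between genotypes, and both gaps were seen in experiment 1 alone. Ctsl, a cysteine endopeptidase, lies on chromosome 13 (64361890 to 64370772). One of its Mu11K B probe sets read 1032 in transgenic cells against 15093 in wild-type cells, 14.6-fold lower. A further probe set of the same array, x06086_f_at, read 1419 in transgenic cells against 19386 in wild-type cells, 13.7-fold lower. Both were designed from the same source record, so they are not independent readings, and their suffix marks probes that can match a family of similar sequences. Among all probe sets of Mu11K B the wild-type values stood at percentiles of 99.5 and 99.7 of that array, and the transgenic values at 85.0 and 88.0.

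In experiment 2 the same difference was not seen. Its U74Av2 probe set read 1512 in transgenic and 1802 in wild-type cells, 1.19-fold lower, at percentiles of 88.9 and 90.9. The Ctsl log2 ratios of the experiments were thus -3.82 and -0.25, or 3.57 apart.

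Ctse encodes an intracellular aspartic protease of immune cells and the stomach, and lies on chromosome 1 (131638314 to 131675507). On Mu11K B its single probe set read 107.4 in transgenic cells, just above the floor, against 3598 in wild-type cells, 33.5-fold lower. With a floor of 200 in place of 100 its log2 ratio was -4.17, against -5.07 here, so the size of the fold rests on the floor. In percentiles of that array it stood at 54.2 in transgenic and 94.9 in wild-type cells. On U74Av2 a first probe set read 151.3 in transgenic and 148.5 in wild-type cells, a log2 ratio of 0.03. A pair of other U74Av2 probe sets assigned to Ctse read 1920 and 3641 in transgenic cells against 2197 and 3924 in wild-type cells, with log2 ratios of -0.19 and -0.11. These last probe sets share a source record that is not the one behind the first, and their suffixes mark incomplete and family probe sets. Averaged over the 3 probe sets, the log2 ratio of experiment 2 was -0.09, and without that pair it was 0.03, so the sign rests on which probe sets are taken as Ctse.

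**Figure D1:**
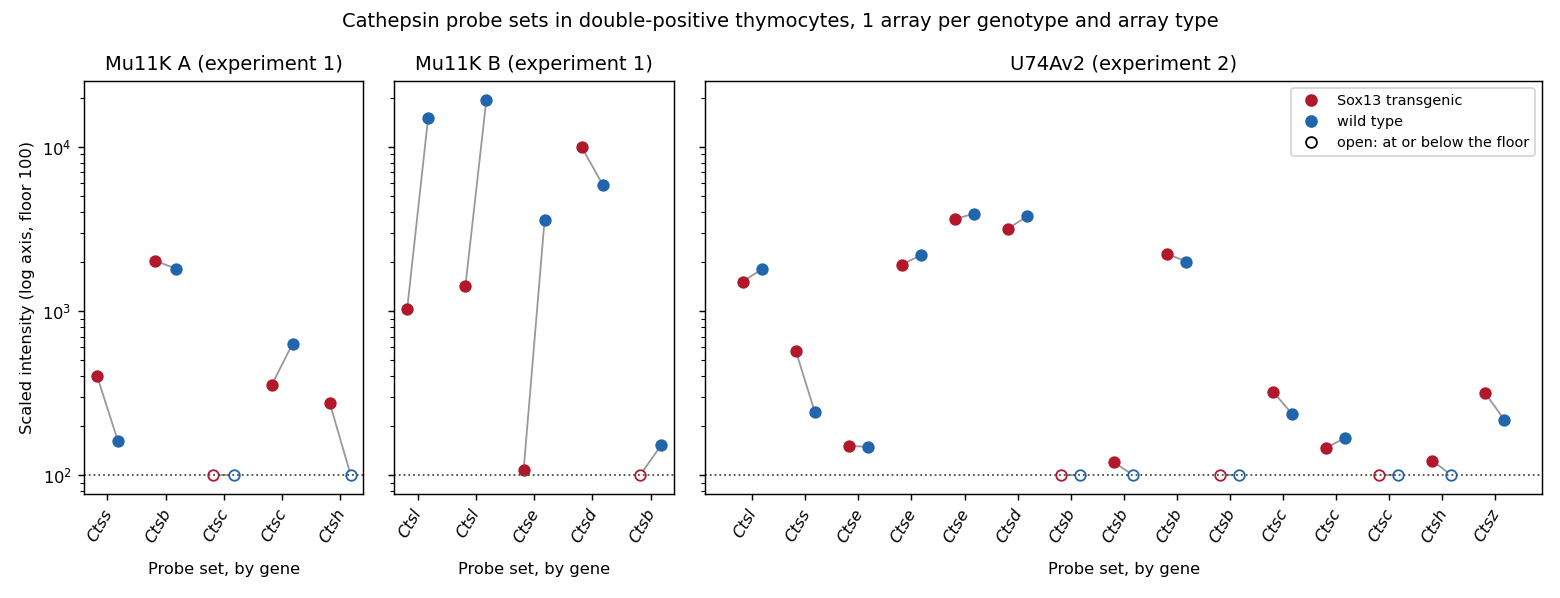
Scaled intensity (log axis) of the 25 cathepsin probe sets, with the transgenic array in red at the left of each pair and the wild-type array in blue at the right, 1 array each, by array type; open circles lie at or below the floor of 100. The steepest lines are the Ctsl and Ctse probe sets of Mu11K B, with 1032, 1419 and 107.4 in transgenic against 15093, 19386 and 3598 in wild-type cells, while the lines of these genes on U74Av2 are nearly level.

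Both genes stood at the edge of experiment 1. Of the 3577 probe sets of Mu11K B that passed the floor in either genotype, Ctse had the second lowest log2 ratio and the Ctsl probe sets ranked 3 and 4 from the bottom. The only lower one was a probe set without a gene symbol, under the floor in transgenic cells and at 8661 in wild-type cells. Averaged by gene, Ctse and Ctsl ranked 1 and 2 from the bottom of 3927 genes in experiment 1, but 2107 and 1043 from the bottom of 5377 genes in experiment 2. Whether the wild-type or the transgenic sample of experiment 1 is the unusual one cannot be told from a single array of each.

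Genes with the ratios most like theirs were sought among 2618 genes whose probe sets all passed the floor, by Euclidean distance over the 2 log2 ratios. Ctsl was nearest to Ctse, at a distance of 1.26, followed by Cd28 at 2.24, Pdk1 at 2.41, Chd1 at 2.46 and Tnfaip3 at 2.59. For Ctsl the nearest were Cd28 at 0.98, with log2 ratios of -2.86 and -0.43, then Ctse at 1.26, Chd1 at 1.27, Pdk1 at 1.33 and Tnfaip3 at 1.34. With only 2 ratios per gene this likeness is a description of distance and no more.

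**Figure D2:**
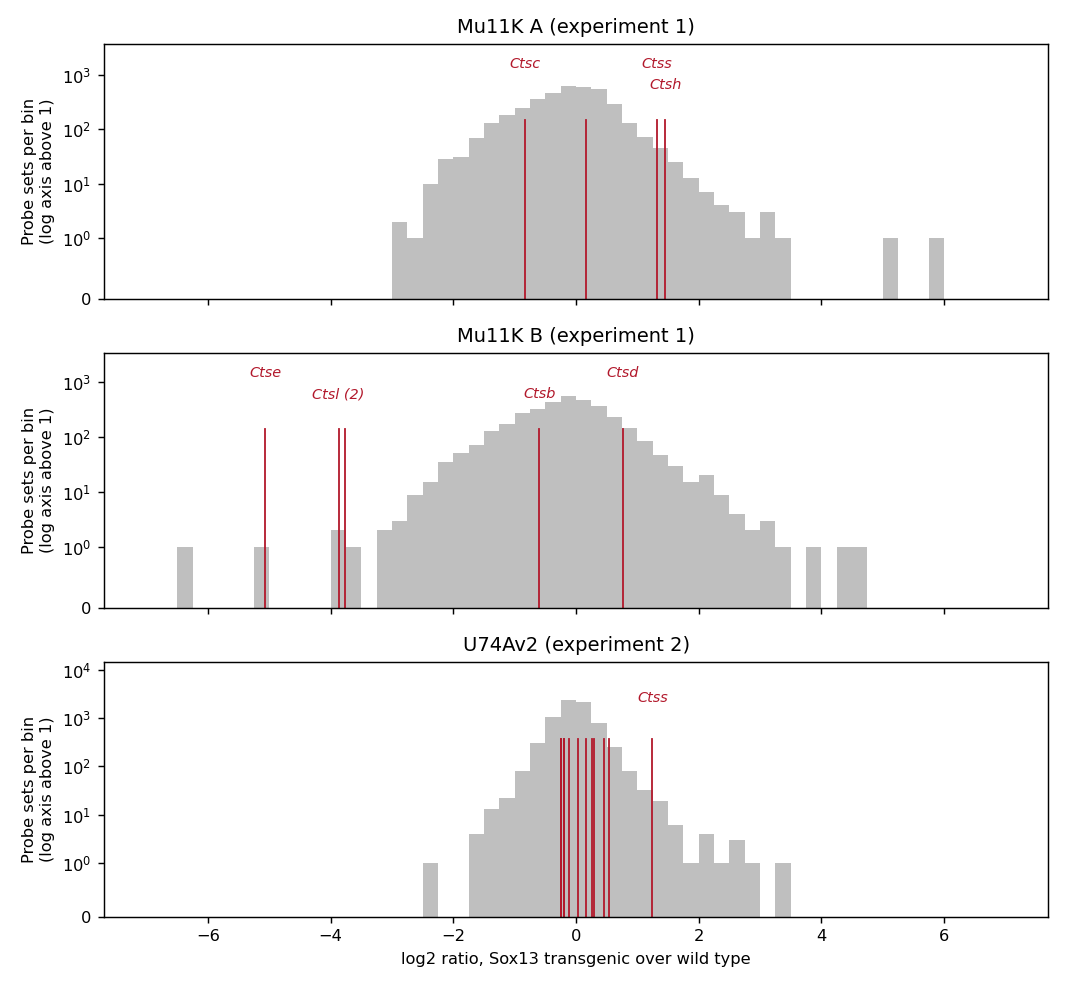
Number of probe sets per bin of log2 ratio (transgenic over wild type; log axis above 1) on each array type, for probe sets past the floor in either genotype, with red lines for cathepsin probe sets. Ctse at -5.07 and the 2 Ctsl probe sets at -3.87 and -3.77 lie in the left tail of Mu11K B, and Ctss at 1.24 lies in the right tail of U74Av2.

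Ctss was the member whose difference was of like size in both experiments. It encodes cathepsin S, a cysteine endopeptidase that keeps its activity at neutral pH and trims the invariant chain in B cells, macrophages and dendritic cells, and it lies on chromosome 3 (95526786 to 95556405). On Mu11K A the probe set aa255186_s_at read 404.1 in transgenic against 162.0 in wild-type cells, 2.49-fold higher. On U74Av2 its probe set read 570.3 in transgenic against 241.0 in wild-type cells, 2.37-fold higher. Its log2 ratios of 1.32 and 1.24 gave a mean of 1.28 ± 0.05 (SD, n = 2 experiments). This closeness depends on the processing. The ratios were 1.58 and 1.27 after quantile normalization, 1.65 and 1.30 with median scaling, and 1.01 and 1.24 with a floor of 200. Its percentile on the array was 68.8 in transgenic and 49.9 in wild-type cells on Mu11K A, and 74.5 and 59.5 on U74Av2. By gene it ranked 100 from the top of 3927 genes in experiment 1 and 21 from the top of 5377 in experiment 2. In such sorted bulk RNA, more cells of a type that expresses a gene and more transcript per cell cannot be told apart.

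Ctsd, the main aspartic protease of lysosomes, had opposite signs in the experiments. It lies on chromosome 7 (142375910 to 142387827). Its Mu11K B probe set x52886_s_at read 9942 in transgenic against 5876 in wild-type cells, 1.69-fold higher, and its U74Av2 probe set read 3182 in transgenic against 3778 in wild-type cells, 1.19-fold lower. Both readings lay above percentile 95 of their arrays in both genotypes, from 95.3 to 98.5. Ctsd was read on the same Mu11K B arrays as Ctsl and Ctse and had the other sign there, by 1 probe set and 1 array per genotype. The cause of these differences was not tested.

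Among the cathepsins that also cut from the ends of a protein, differences ran in both directions, and several readings lay near the floor. Ctsb, a cysteine protease that acts both within chains and as a peptidyl-dipeptidase, was read by 6 probe sets. Its Mu11K A probe set and its brightest U74Av2 probe set were close between genotypes, with 2026 in transgenic and 1813 in wild-type cells on Mu11K A, and 2233 in transgenic and 2005 in wild-type cells on U74Av2. The log2 ratios of these probe sets were 0.16 and 0.16. The remaining Ctsb probe sets lay near or under the floor. X54966_rc_at on Mu11K B was under the floor in transgenic cells and at 151.9 in wild-type cells, at least 1.52-fold lower. On U74Av2, 1 further probe set read 119.7 in transgenic cells and 99.8, just under the floor, in wild-type cells, and the other two were under the floor in both genotypes.

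Ctsc encodes dipeptidyl peptidase I, which removes dipeptides from the start of progranzymes and thereby activates them. The Mu11K A probe set u89269_s_at read 353.3 in transgenic against 631.8 in wild-type cells, 1.79-fold lower, and AA288280_s_at was under the floor in both. On U74Av2 its probe sets went opposite ways, 1 with 322.4 in transgenic against 235.4 in wild-type cells and 1 with 146.9 in transgenic against 169.0 in wild-type cells, while the third was under the floor in both. The gene's log2 ratios were -0.84 and 0.13.

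Ctsh, an aminopeptidase, was above the floor in transgenic cells alone in both experiments. It read 274.6 in transgenic cells on Mu11K A, where the wild type was under the floor, at least 2.75-fold higher. On U74Av2 it read 122.7 in transgenic cells, with the wild type again under the floor, at least 1.23-fold higher. These bounds move with the floor, to at least 5.49 and at least 2.39 with a floor of 50, and the first to at least 1.37 with a floor of 200. Ctsz, a carboxypeptidase also called cathepsin X, had a probe set on U74Av2 only, with 315.5 in transgenic against 217.7 in wild-type cells, 1.45-fold higher.

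**Figure D3:**
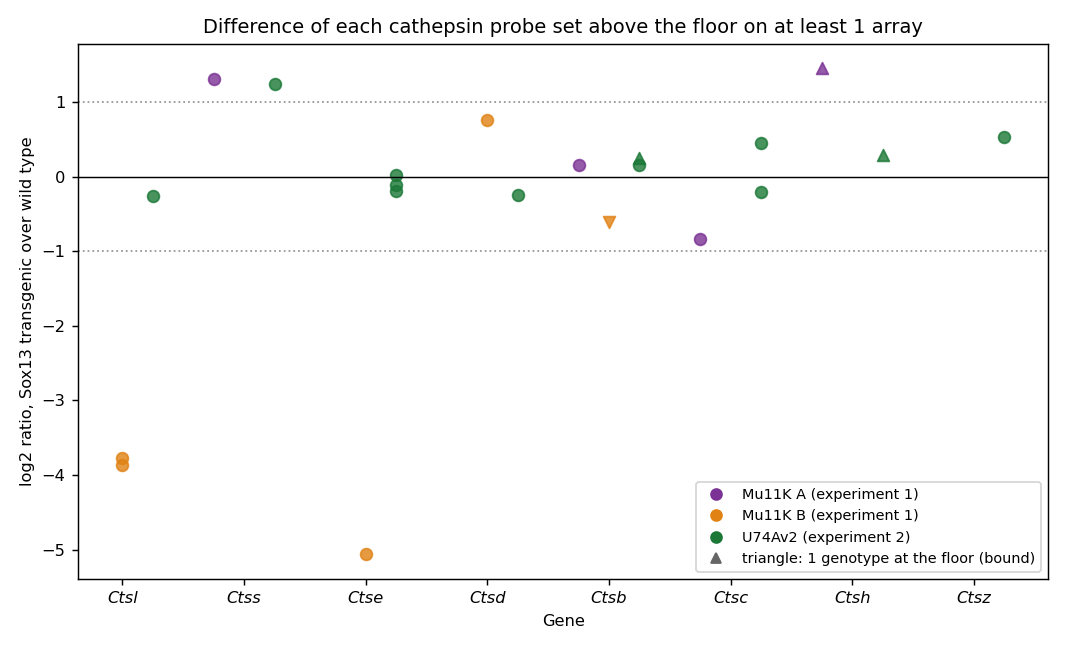
log2 ratio (transgenic over wild type) of each cathepsin probe set past the floor in either genotype, by gene and array type; circles are measured in both genotypes, triangles are bounds with 1 genotype at the floor, and dotted lines mark a 2-fold difference. Ctss has points at 1.32 and 1.24, the Ctsl and Ctse points of Mu11K B lie at -3.77 and below, and most other points lie between the dotted lines.

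By probe set, 2 of 4 cathepsin probe sets past the floor on Mu11K A were 2-fold or more higher and 0 lower, beside 4.56% and 11.7% of all probe sets there. On Mu11K B, 0 of 5 were higher and 3 lower, beside 6.15% and 13.9%, and on U74Av2 1 of 12 was higher and 0 lower, beside 0.971% and 0.563%. By gene, 2 members of 7 measured in experiment 1 were 2-fold or more higher (Ctss and Ctsh) and 2 were 2-fold or more lower (Ctsl and Ctse), where 5.25% and 11.7% of all genes were. In experiment 2, 1 of 8 members (Ctss) was 2-fold or more higher and 0 lower, where 0.855% and 0.446% of all genes were. Ctss was the 1 member of 7 with a 2-fold difference in the same direction in both experiments, against 0.432% of the 3237 genes measured in both, and 0 members were 2-fold lower in both, against 0.0618% of genes. Of the 7 members in both experiments, 2 were higher in both (Ctss and Ctsh), 2 lower in both (Ctsl and Ctse) and 3 had opposite signs (Ctsb, Ctsd and Ctsc), where 23.9%, 30.4% and 45.7% of all genes were. With Ctse read without the pair of U74Av2 probe sets of the other source record, 1 was lower in both and 4 had opposite signs. Because the members were chosen on this contrast, these counts describe them and support nothing further. Without the Mu11K B arrays, an alternative chosen after the values were seen, no member was 2-fold lower in experiment 1. Ctsl, Ctse and Ctsd have no other probe set in that experiment and drop out, so this outcome was fixed beforehand and shows nothing about the Ctsl and Ctse values.

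The signs of Ctss, Ctsl and Ctsh held under quantile, median and loess scaling in both experiments, as did the sign of Ctse with all its probe sets. Ctsb in experiment 1 changed sign under median scaling, at 0.05 on the log2 scale against -0.22 in the scaling used here, and it was 0.16 where the near-floor Mu11K B probe set did not enter (a floor of 200, both genotypes above the floor, the brightest probe set, or no Mu11K B arrays). Over all genes of experiment 1 that scaling moved the median log2 ratio to 0.27, against -0.07 in the scaling used here, so values under the 2 scalings are read beside these medians. Beside that median, the log2 ratios of Ctss and Ctsd in experiment 1 were 1.65 and 1.22 under median scaling.

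The genes that work with cathepsins were read from lists drawn from textbook knowledge, with earlier results of these data known. Differences were tested with limma on the log2 ratios of the 2 experiments, over 3237 genes, of which 5 passed as higher and 0 as lower at an adjusted p of 0.05 (0.154% in all; 81 higher and 127 lower at an unadjusted p under 0.05). Among these 5, Sox13 is the transgene itself, whose call follows from the design. Hba-a1 and Hbb-b2 encode globins and are markers of red blood cells. The rest were Dtx1 and Plac8. The medians of the log2 ratio over these genes were -0.05 in the first and -0.02 in the second experiment.

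None of the genes that inhibit, sort or accompany cathepsins passed. In the lists of other lysosomal peptidases (2 genes tested), cathepsin inhibitors (2), sorting factors (10), lysosomal hydrolases (14) and lysosomal membrane proteins with the proton pump (19), 0 genes passed in either direction in limma and 0 had an unadjusted p under 0.05. Among other lysosomal peptidases, Ctsk, the collagen-degrading cathepsin of osteoclasts, read 144.5 in transgenic against 204.3 in wild-type cells on Mu11K B, and under the floor against 143.3 on U74Av2. Ctsa, which encodes the protective protein of lysosomal sialidase, had log2 ratios of 0.55 and -0.21. The inhibitor gene Cstb, which encodes cystatin B, had 831.1 in transgenic and 674.0 in wild-type cells in experiment 1 and 1977 and 1867 in experiment 2. Cst3, which encodes cystatin C, was split in experiment 1, with probe sets at 2158 in transgenic against 1414 in wild-type cells and at under the floor against 229.2. On U74Av2 a probe set read 3182 in transgenic and 2786 in wild-type cells.

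Sorting factors had median log2 ratios of 0.06 and 0.09 in experiments 1 and 2. Gga2, an adaptor that binds mannose 6-phosphate receptors, had 0.57 and 0.46, and Igf2r, the large mannose 6-phosphate receptor, had -0.02 and -0.20. Lysosomal hydrolases had medians of 0.27 and -0.11, with the sialidase gene Neu1 at 0.42 and 0.30 and the acid phosphatase gene Acp2 at -0.55 and -0.13. Psap, the precursor of the saposins that aid lipid breakdown, had 0.25 and 0.09. The membrane and pump list had medians of 0.17 and -0.02, and its gene with the largest difference held by both experiments was the iron transporter Slc11a2, at 1.10 and 0.40.

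Class II genes, whose products are freed for peptide loading by the invariant chain breakdown that Ctss carries out, had list medians of 1.23 and 0.62 over 7 genes measured in both experiments, 6 of them higher in both and 0 lower in both, where 23.9% of all genes were higher in both. Over all 11 class II genes measured in experiment 2 the median was 0.26, with 9 higher and 2 lower. None of the 7 passed in limma (0 of 7, with a lowest adjusted p of 0.482), and 4 had an unadjusted p under 0.05 as higher. The invariant chain gene Cd74 read 4243 in transgenic against 1808 in wild-type cells in experiment 1, and 1403 against 723.9 in experiment 2. The 5 probe sets of H2-Aa, a class II alpha chain, in experiment 1 had log2 ratios between 0.90 and 1.65. Most of them carry the suffix of family probe sets, so they are not independent readings. Its U74Av2 probe set read 661.4 in transgenic against 313.1 in wild-type cells. H2-Eb1, a class II beta chain, was split in experiment 1, at 785.7 in transgenic against 932.1 in wild-type cells and at 1756 against 680.8. On U74Av2 it read 571.9 against 373.0. H2-DMb1 had log2 ratios of 0.07 and at least 1.02, with the wild type under the floor in experiment 2. H2-DMa, a subunit of the peptide-loading chaperone, was at 426.7 in transgenic cells and under the floor in wild-type cells in experiment 1, while on U74Av2 a bright probe set read 920.8 in transgenic and 1029 in wild-type cells and a dim one 122.1 in transgenic cells and under the floor in wild-type cells. Its experiment 2 log2 ratio of 0.06, counted above as higher, therefore rests on the dim probe set. H2-Oa, a subunit of the inhibitor of that chaperone, had log2 ratios of 0.70 and -0.24.

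Of the granule proteases listed with Ctsc, 2 were measured in both experiments and 0 passed in limma, with 1 higher at an unadjusted p under 0.05. Gzma, which encodes granzyme A, read 8604 in transgenic against 1535 in wild-type cells in experiment 1 and 1262 against 605.2 in experiment 2 (adjusted p = 0.181, limma, n = 2 experiments). Tpsb2, a mast cell tryptase gene, had log2 ratios of 0.13 and -0.79. Its product is not taken here as one that Ctsc activates, which leaves Gzma as the only such gene measured in both. Ctsc itself had -0.84 and 0.13, as given above, so its sign matched that of Gzma in experiment 2 alone.

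**Figure D4:**
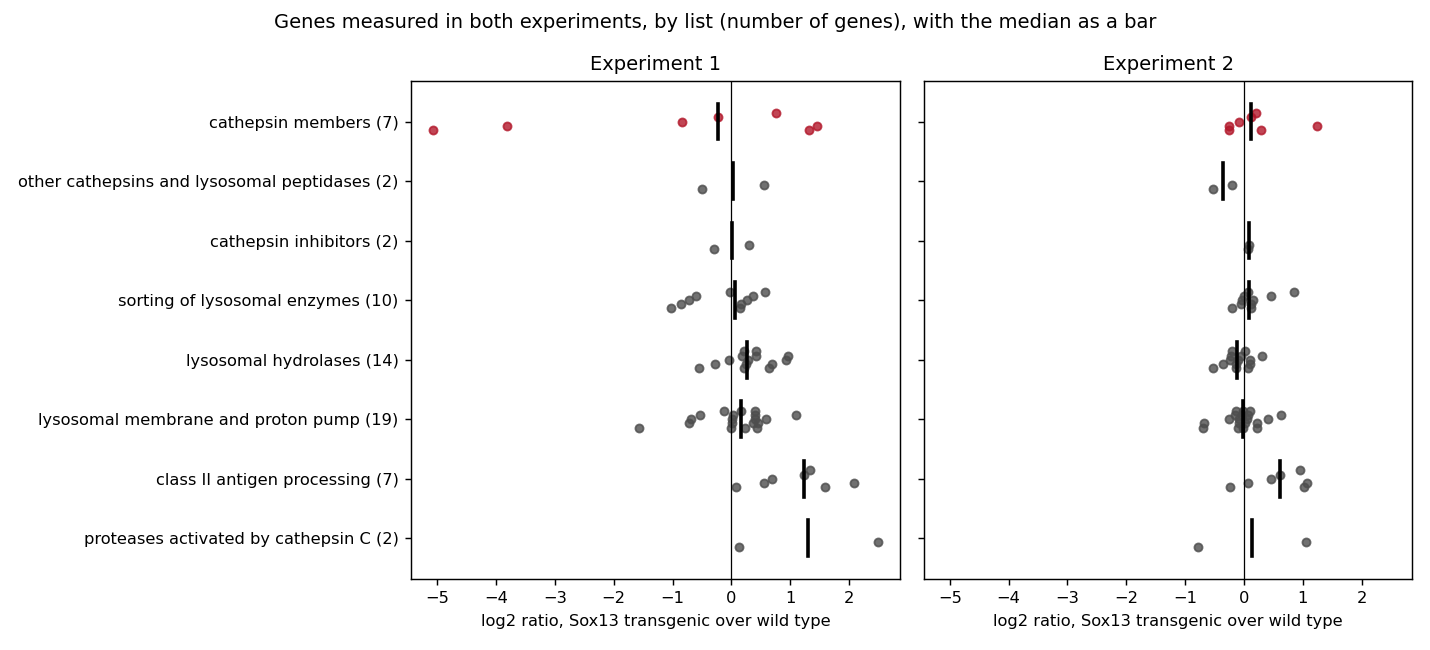
log2 ratio (transgenic over wild type) in experiment 1 (left) and experiment 2 (right) of genes measured in both, with a point per gene, the cathepsin members in red at the top and a bar at each list's median; some points are bounds with 1 genotype at the floor. The class II bars lie at 1.23 and 0.62, the cathepsin bars at -0.22 and 0.13, and the sorting, hydrolase and membrane lists close to 0.

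Markers of cells outside the sort gate were set beside the Ctss, Ctsl and Ctse values. For myeloid cells, 4, 3 and 8 of the 11, 7 and 19 marker genes on Mu11K A, Mu11K B and U74Av2 lay above the floor in transgenic samples, against 4, 3 and 6 in wild-type samples. Their summed levels were 2331 in transgenic against 2781 in wild-type samples on Mu11K A, 1104 against 1169 on Mu11K B and 1653 against 1455 on U74Av2. On Mu11K A, where Ctss was 2.49-fold higher, the sum was thus lower in the transgenic sample, and on U74Av2, where Ctss was 2.37-fold higher, it was higher. Of the marker genes measured, 2 of 7 were higher in experiment 1 and 6 of 10 in experiment 2, with median log2 ratios of -0.13 and 0.37. Mpeg1, a macrophage gene, was higher in both, with log2 ratios of 0.51 and 0.66, and Cd14 lower in both, with -0.12 and -0.19. Lyz2, the lysozyme gene of macrophages, supplied most of the myeloid sum on Mu11K A, so that sum largely reflects 1 gene. It read 1627 in transgenic and 2024 in wild-type cells there, and 254.6 in transgenic cells and under the floor in wild-type cells on U74Av2. Cd68, a lysosomal protein gene of macrophages, had -0.13 and 0.63. The part of myeloid cells in the Ctss difference was not tested. Itgam, on U74Av2 only, was under the floor in both genotypes. Itgax, an integrin gene of dendritic cells, was at 134.6 in transgenic cells and under the floor in wild-type cells on U74Av2. Of the 6, 1 and 10 dendritic cell marker genes on the 3 array types, 3, 0 and 5 lay above the floor in transgenic and 2, 0 and 4 in wild-type samples. They summed to 661.0 in transgenic and 339.3 in wild-type samples on Mu11K A and to 1238 and 1446 on U74Av2. Of the dendritic cell marker genes measured, 3 of 3 were higher in experiment 1, with a median log2 ratio of 0.95. In experiment 2, 1 of 5 was higher, namely Itgax, and 4 were lower, with a median of -0.21.

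Of the 9, 6 and 14 B cell marker genes on Mu11K A, Mu11K B and U74Av2, 3, 2 and 7 lay above the floor in transgenic and 4, 2 and 7 in wild-type samples. They summed to 5233, 13470 and 16464 in transgenic samples, against 4172, 10134 and 15319 in wild-type samples. The B cell receptor gene Cd79a was under the floor in both genotypes on Mu11K B and read 177.3 in transgenic and 100.6 in wild-type cells on U74Av2. Most of each sum came from Ighm, the IgM heavy chain gene, whose brightest probe set read 3911, 13180 and 10560 in transgenic samples, against 2949, 9859 and 10340 in wild-type samples. Of the B cell marker genes measured, 3 of 5 were higher in experiment 1 and 5 of 9 in experiment 2, with median log2 ratios of 0.08 and 0.07. Cd79b, also of the B cell receptor, had 0.58 and -0.23, and the surface protein gene Ms4a1 had -0.14 and 0.83. The sums were higher in the transgenic sample on all 3 array types, but they largely reflect Ighm. Its brightest probe sets already stood at percentiles of 95.4, 98.7 and 99.0 in the wild-type samples. On Mu11K B the only other marker gene above the floor was Vpreb1, at 290.0 in transgenic and 274.6 in wild-type cells. The part of B cells in the Ctss difference was not tested.

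For thymic epithelium, the main source of cathepsin L in the cortex, 1, 1 and 3 of the 7, 4 and 12 marker genes lay above the floor in transgenic samples, against 1, 0 and 3 in wild-type samples. On Mu11K B, where Ctsl was 13.7-fold and 14.6-fold lower in transgenic cells, the keratin gene Krt8 was under the floor in both genotypes and the epithelial transcription factor gene Foxn1 read 117.0 in transgenic cells and under the floor in wild-type cells. Epithelial markers summed to 1219 in transgenic against 367.7 in wild-type samples on Mu11K A, where the tight junction gene Cldn4 supplied every value above the floor, and to 1023 and 1086 on U74Av2. Of the 6, 5 and 11 erythroid marker genes, 2, 3 and 2 lay above the floor in transgenic and 3, 4 and 4 in wild-type samples. They summed to 809.4 in transgenic and 888.0 in wild-type samples on Mu11K A, to 3447 in transgenic against 941.2 in wild-type samples on Mu11K B and to 2234 against 864.5 on U74Av2. The Mu11K B difference, opposite in direction to that of Ctsl and Ctse on the same arrays, was led by the alpha-globin gene Hba-a1, with 1862 in transgenic against 131.0 in wild-type cells in the probe set v00714_f_at. Its other Mu11K B probe set read 299.4 in transgenic and 305.5 in wild-type cells. Over both experiments Hba-a1 had log2 ratios of 1.90 and 2.76 (adjusted p = 0.0154, limma) and Hbb-b2, a beta-globin gene, had 3.04 and at least 1.54 (adjusted p = 0.0399, limma). Car2, also on the erythroid list, was under the floor in transgenic cells in both experiments, with log2 ratios of -0.98 and -1.64 as bounds.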

How the data were processed

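RNA of sorted double-positive thymocytes was measured on 6 Affymetrix arrays, 1 per genotype on each of Mu11K A, Mu11K B and U74Av2. The deposited values are linear intensities, 1 per probe set, made by the authors with Microarray Analysis Software versions 4 and 5 per the series text, and MAS5 is named for the U74Av2 arrays in the submitters' processing notes. The scaling target is not given in the sources used here. Negative intensities made up 17.3% to 29.2% of Mu11K values and 0% of U74Av2 values, and no detection calls were used.

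Control probe sets (55, 55 and 66) and 21 Mu11K A probe sets lacking a wild-type value were left out. Arrays were brought to the same 2% trimmed mean (500), floored at 100 and put on the log2 scale. Genes were named from probe sets with 1 symbol in the platform annotation, checked by gene ID against RefSeq of GRCm38.p6, which changed 0 names. Within an experiment a gene's log2 ratio is the mean over its probe sets that passed the floor in either genotype.

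limma 3.58.1 (R 4.3.3) was fitted to the 2 ratios per gene, testing their mean against 0 (two-sided), with p-values adjusted by Benjamini-Hochberg over 3237 genes and a threshold of 0.05. The prior had 12.1 degrees of freedom, so the p-values rest mainly on a variance shared over genes. Only the smaller part of that variance is a gene's own spread between 2 pairs of pooled samples. These pairs were read on different array types, so differences between platforms and between samples cannot be told apart in it. The members, the 7 pathway lists and the 6 marker lists were chosen with earlier results of these data known. Text names all members, up to 3 genes per direction and list by the smaller of the absolute ratios, defining markers and the 5 genes nearest to the 2 members with the largest mean ratio. Genes named outside this rule (Rag2, Ptcra, Dtx1, Plac8, Ctsk, Ctsa, Cst3, H2-DMa, H2-DMb1, H2-Oa, Tpsb2, Cldn4, Foxn1, Mpeg1, Cd14, Cd68, Ighm, Vpreb1, Cd79b, Ms4a1, Hbb-b2, Car2 and 1 probe set without a symbol) were chosen after their values were seen. Alternatives were other floors, scalings, filters, probe set choices and an unpaired fit. Protein identities between members, planned at the outset, were not computed.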

Additional observations from a re-analysis of the deposited data

How the results depend on the processing

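The Ctss mean log2 ratio of 1.28 was 1.13 with a floor of 200, 1.43 after quantile normalization, 1.47 with median scaling and 1.41 with loess, and over the experiments left out in turn it ran between 1.24 and 1.32. That of Ctsh, a bound, was 1.86 with a floor of 50, since the wild type is then taken lower. Members 2-fold higher in experiment 1 numbered 1 with a floor of 200 and 1 where both genotypes had to pass the floor, which drops Ctsh. With median scaling they numbered 3, Ctsd included, which is within the limit of 1.5 times used below for counts. In experiment 2 they numbered 2 with a floor of 50. Members 2-fold lower in experiment 1 numbered 0 without the Mu11K B arrays, which leaves Ctsl and Ctse unmeasured there. That setting, and Ctse without its pair of U74Av2 probe sets of the other source record, were chosen after seeing the data. Higher genes in limma numbered 0 with a floor of 50, 12 after quantile normalization, 22 with median scaling, 0 with no filter, 2 where all arrays had to pass the floor, 1 with the brightest probe set and 3 without the Mu11K B arrays. Lower genes numbered 1 with a floor of 200, 3 after quantile normalization and 5 with median scaling. Of the pathway genes, 1 passed after quantile normalization and 1 with median scaling. The labels give no replicate numbers, and pairing follows the experiment. With no replicate block, so that differences between array types enter the spread, 0 genes passed as higher. The cause of the other changes was not tested. The remaining 116 values compared across alternatives stayed within the spread between experiments, or within 1.5 times for counts, while 18 of 63 list medians moved beyond it. Left out of these counts are 29 values with 1 experiment dropped, since a member's mean of 2 values then always moves by less than their SD. For members these are the single experiments' own values, and ran between -5.07 and -0.09 for Ctse, -3.82 and -0.25 for Ctsl, -0.25 and 0.76 for Ctsd, -0.22 and 0.21 for Ctsb, -0.84 and 0.13 for Ctsc and 0.30 and 1.46 for Ctsh. The spread between experiments is a loose yardstick for some members. It was 3.52 for Ctse and 2.52 for Ctsl, which leaves little room for a setting to count as moved. Ctsz, measured in experiment 2 only, has no such spread and was held against 0.71, the value of Ctsd. Ctsb changed sign within its spread of 0.30. Some settings also left a member's value exactly as it was, so the count of unmoved values says little about stability. The number of arrays, and signals near the floor for Ctsh, Ctsc and Ctse, limit the precision.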
